A study of Mus musculus with 2 samples.

Results

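The genes described here encode the main chaperones of the cytosol and mitochondria: HSP90, HSP70, HSP110, J-domain (HSP40) and small heat shock proteins, the chaperonin CCT, their cochaperones and the heat shock factor Hsf1. They were chosen by gene symbol, as 33 names out of 55487 named records, and each name had a single record in both files. Low values of Hsp90aa1 and Dnajc12 in the shETV4 library were already known when the names were chosen, so their levels are given as a description. LPC-HRas cells, labelled as a mouse hepatocellular carcinoma line, were infected with lentivirus carrying the control hairpin shRFP (1 library) or the hairpin shETV4 against the ETS factor gene Etv4 (1 library). Both groups therefore carry a lentiviral hairpin, and no uninfected cells were analysed here. The labels do not say whether the line is a clone or how long after infection RNA was taken.

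Values are TPM, transcript abundances that are scaled to transcript length and to each library's total, so levels can be compared between genes but sequencing depth is unknown. Etv4 was at 73.2 TPM in the shRFP library and at 16.2 TPM in the shETV4 library. None of 6 hepatocyte markers reached 1 TPM and Alb was listed at 0 in both libraries, while Vim was at 4324 and 4104 TPM and the immune marker Ptprc was at 0 and 0.03 TPM. A difference is log2(TPM + 1) in shETV4 minus that in shRFP, and genes at 1 or more were counted as called higher and those at -1 or less as called lower, which is 2-fold on that scale. Folds are plain TPM ratios. With 1 library per group no test was possible, and every comparison describes these libraries only.

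Chaperones bind proteins that have not reached their folded state. HSP70 proteins take up extended segments with the help of J-domain proteins, which deliver substrates and start ATP hydrolysis, and of exchange factors, which release ADP. HSP90 acts later, on kinases, steroid receptors and other clients handed over by cochaperones, and CCT encloses actin and tubulin in its chamber. Under heat or proteotoxic stress HSF1 binds heat shock elements and switches on the inducible members. Tumour cells often depend on HSP90 because many mutant kinases are its clients.

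All 33 genes passed 1 TPM in at least 1 library, and 2 of them, Hsp90aa1 and Dnajc12, were called lower with shETV4 while none was called higher. That is 6.06% of the chaperone genes, beside 7.06% of all 12968 genes at 1 TPM or more called lower and 3.39% called higher. Because Hsp90aa1 and Dnajc12 were known to be low when the names were chosen, this share does not describe chaperone genes as a set. Of the other 31 genes 0 were called lower and 0 higher. The median difference was -0.28, beside -0.10 over all genes. On the deposited scale 26 genes were below 0 and 7 above, beside 7560 below and 5395 above among the 12968 genes. Together the chaperone genes held 1.39% of all TPM with shRFP and 1.13% with shETV4.

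**Figure D1:**
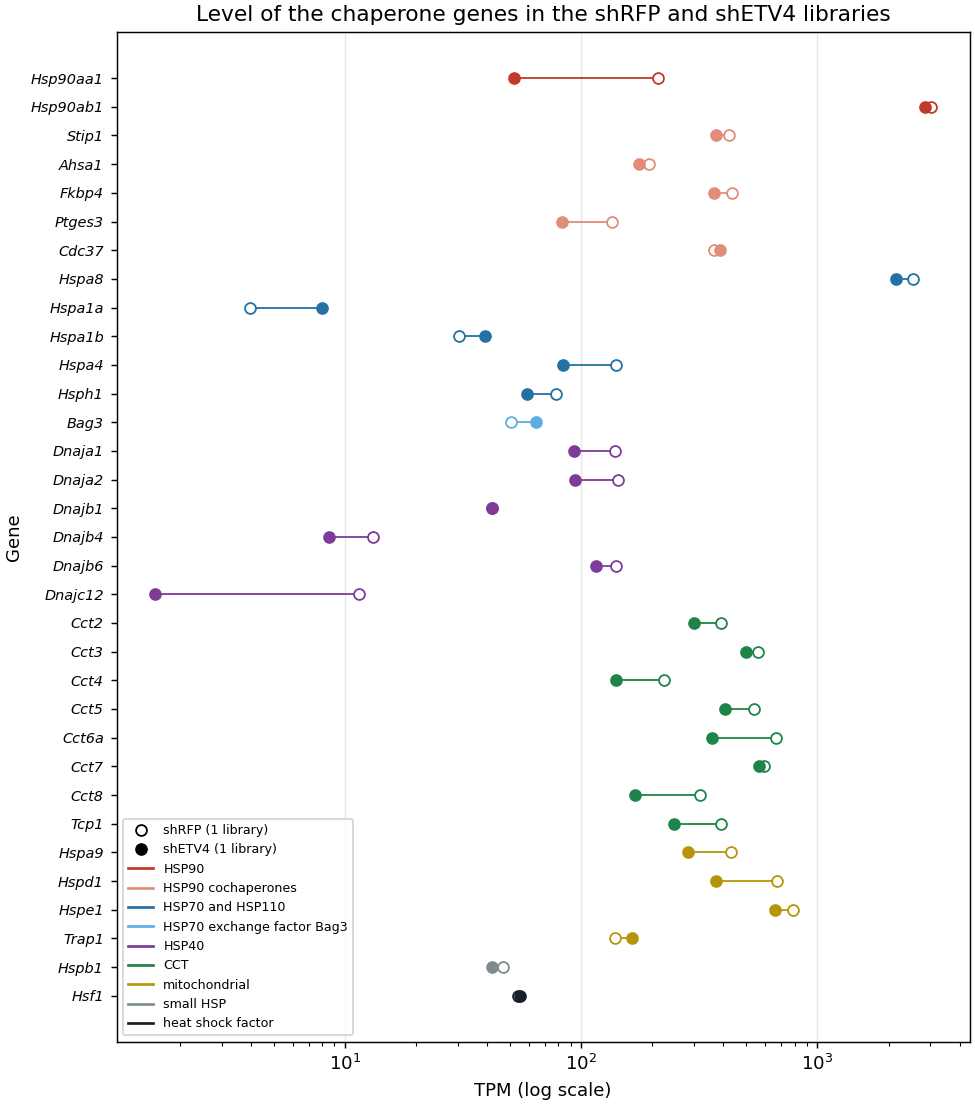
TPM (log axis) of each chaperone gene in the shRFP library (open points) and the shETV4 library (filled points), coloured by family, with 1 library per group and no error bars. Hsp90aa1 and Dnajc12 have the widest gaps between libraries, while Hsp90ab1 and Hspa8 stay between 2148 and 3020 TPM in both.

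Hsp90aa1, the stress-inducible isoform of cytosolic HSP90, stood at 212 TPM in the control library and 52.0 TPM after the Etv4 hairpin, 4.07-fold lower (difference -2.01). Hsp90ab1, the constitutive isoform, was at 3020 TPM and 2853 TPM, a difference of -0.08 that turned to 0.04 when the libraries were scaled to a trimmed mean of log ratios. The isoforms thus differed from each other in both level and difference. Hsp90ab1 was 14.2-fold above Hsp90aa1 with shRFP and 54.8-fold above it with shETV4. Hsp90aa1 made up 6.56% of the summed cytosolic HSP90 level with shRFP and 1.79% with shETV4. The sum itself was 1.11-fold lower, at 3232 and 2905 TPM.

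Hsp90aa1 (ENSMUSG00000021270) occupies chromosome 12 from 110690605 to 110702728 (GRCm38, minus strand), and Hsp90ab1 (ENSMUSG00000023944) chromosome 17 from 45567775 to 45573271 (minus strand). None of the exons of Hsp90aa1 overlaps an annotated exon elsewhere. The nearest genes at 1 TPM or more on either side were Dync1h1, 23660 bases away at 116 and 118 TPM, and Wdr20, 35216 bases away at 10.4 and 11.6 TPM. Neither neighbour shared the difference of Hsp90aa1.

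The mouse genome carries processed copies of Hsp90aa1, and 47.5% of the 50-base words in its transcripts also occur in transcripts of other genes. The last 60 coding bases before the stop codon, shown because they compare the gene with its closest copies and with its paralog, were identical in the pseudogenes Gm12346 and Gm5844. Hsp90ab1 differed at 15 of the 60 bases, and capitals mark the bases that differ from Hsp90aa1:
Hsp90aa1: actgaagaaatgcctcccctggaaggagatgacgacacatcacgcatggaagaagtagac
Gm12346: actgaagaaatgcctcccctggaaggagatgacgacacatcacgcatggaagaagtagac
Gm5844: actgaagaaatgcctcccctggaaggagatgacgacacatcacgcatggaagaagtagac
Hsp90ab1: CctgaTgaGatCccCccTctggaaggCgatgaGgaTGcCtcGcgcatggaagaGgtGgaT
The longest run of bases that the longest coding transcript of Hsp90aa1 has in common with each was 530 bases for Gm12346, 288 for Gm5844 and 33 for Hsp90ab1. The deposited values put almost nothing on the copies: Gm12346 was at 0.27 and 0.48 TPM and Gm5844 at 0 and 0.03 TPM. With the TPM of the pseudogenes added, the difference of Hsp90aa1 was -1.99. The sources used here do not say how the authors divided reads among the copies.

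None of the 5 HSP90 cochaperone genes passed 2-fold, and their median difference was -0.18. Ptges3, which encodes p23 and stabilises the closed form of HSP90, was at 134 and 82.9 TPM and had the lowest difference of the group, -0.69. Its processed pseudogene Ptges3-ps holds 19.5% of its 50-base words and was at 14.1 and 17.2 TPM, in the opposite direction. Stip1, the bridge between HSP70 and HSP90, was at 422 and 371 TPM. Ahsa1, an activator of the HSP90 ATPase, was at 193 and 175 TPM. Fkbp4, an immunophilin of steroid receptor complexes, was at 436 and 365 TPM. Cdc37, which loads kinases onto HSP90, was at 365 and 385 TPM. It was the member of this group above 0 on the deposited scale (0.07). After the GC adjustment described below Ahsa1 was above 0 as well (0.03). Other HSP90 cochaperone genes, of which some were called lower, are given further on.

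On the deposited scale the constitutive gene Hspa8 was slightly lower and the inducible HSP70 pair higher, though none passed 2-fold on the log2(TPM + 1) scale. After the GC adjustment described below Hspa8 was at -0.05, Hspa1a at 0.66 and Hspa1b at 0.20. Hspa8, the constitutive cytosolic HSP70, was at 2528 and 2148 TPM (difference -0.23). Hspa1a and Hspa1b, the stress-inducible pair, were both higher with shETV4. Hspa1a was at 3.97 and 7.95 TPM (difference 0.85), a plain ratio of about 2 at a low level, and Hspa1b at 30.5 and 39.2 TPM (0.35). The pair is nearly the same gene: Hspa1b has 62.3% of its 50-base words in Hspa1a, so the division of reads between them is uncertain, and the sum of 34.5 and 47.1 TPM (1.37-fold higher) is the firmer value. Hspa8 stood 83.0-fold above Hspa1b with shRFP and 54.9-fold above it with shETV4. Processed copies of Hspa8 are many, 39.4% of its 50-base words occurring in other genes, but those holding at least 5% of them that have values in the files were at 0.30 TPM or less.

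Hspa4 and Hsph1 encode HSP110 proteins, which exchange the nucleotide of HSP70 and help it dissolve aggregates. Hspa4 was at 140 and 83.8 TPM (difference -0.73) and Hsph1 at 77.8 and 59.0 TPM (-0.39). Bag3, another exchange factor, links HSP70 to small heat shock proteins and selective autophagy. It was at 50.1 and 64.4 TPM, a difference of 0.35. Hspb1, the small heat shock protein that holds unfolded chains in oligomers, was at 46.7 and 41.8 TPM. Of its 50-base words 50.1% occur in other genes, of which Hsp25-ps1 and Gm9817 were listed at 0 in both libraries.

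The 6 J-domain genes had a median difference of -0.57, and the 1 called lower was Dnajc12. Dnajc12, a cochaperone for the aromatic amino acid hydroxylases, stood at 11.4 TPM in the control library and 1.57 TPM after the Etv4 hairpin, 7.27-fold lower (difference -2.27). The value after the Etv4 hairpin is close to the 1 TPM filter. Dnajc12 occupies chromosome 10 from 63382443 to 63410576 (plus strand), 739 bases from Sirt1, which was at 5.73 and 2.48 TPM (-0.95). The next genes at 1 TPM or more also had differences below 0: Herc4 (-0.61), and the distant Reep3 (-0.60) and Jmjd1c (-1.07). The values of these neighbours are without GC adjustment, and a link with Dnajc12 was not tested. Under 1% of the 50-base words of Dnajc12 (0.983%) occur in other genes. The other J-domain genes were closer between libraries. Dnaja1 and Dnaja2, the main J-domain partners of Hspa8 in the cytosol, went from 139 to 92.8 TPM and from 143 to 94.2 TPM between the control and Etv4 hairpins. Dnajb4 was at 13.2 and 8.55 TPM. Dnajb6, a suppressor of polyglutamine aggregation, was at 140 and 115 TPM. Dnajb1, the heat-inducible partner of HSP70 in disaggregation, had nearly equal values of 41.75 and 41.80 TPM.

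The 8 subunit genes of CCT, the ring-shaped chaperonin, all had differences below 0 on the deposited scale, with a median of -0.53 and none past 2-fold; Cct7 was above 0 after trimmed-mean scaling, and Cct3 and Cct7 after the GC adjustment described below. Cct8 and Cct6a had the lowest differences. Cct8 was at 318 and 169 TPM (-0.91) and Cct6a at 665 and 359 TPM (-0.89). Cct4 was at 224 and 140 TPM (-0.68), and Tcp1, which encodes subunit alpha, at 391 and 246 TPM (-0.66). In between stood Cct5, at 539 and 407 TPM, and Cct2, at 390 and 300 TPM. Cct3 was at 563 and 497 TPM and Cct7 at 595 and 564 TPM, the smallest differences. Although the assembled ring holds its subunits in equal number, their levels spanned 2.96-fold with shRFP and 4.03-fold with shETV4. The summed level of the subunits was 3683 and 2681 TPM, 1.37-fold lower.

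Mitochondrial chaperones differed among themselves. Hspd1, which encodes the HSP60 ring that folds imported matrix proteins, was at 677 and 373 TPM (-0.86). Hspe1, its HSP10 lid, was at 787 and 663 TPM (-0.25). These genes are divergent neighbours on chromosome 1, Hspd1 at 55077835 to 55088243 on the minus strand and Hspe1 at 55088132 to 55091307 on the plus strand, so that their annotated ends overlap. The ratio of Hspd1 to Hspe1 was 0.861 with shRFP and 0.563 with shETV4. Hspd1-ps3, which holds 38.0% of the 50-base words of Hspd1, was at 0.05 and 0 TPM. Hspa9, the mitochondrial HSP70, was at 429 and 283 TPM (-0.60). Trap1, the mitochondrial HSP90, was at 139 and 164 TPM (0.24), in the direction opposite to Hsp90aa1. Hsp90b1, the HSP90 of the endoplasmic reticulum and not among the 33, was at 213 and 102 TPM, a difference of -1.05 that also passed 2-fold and became -0.42 after GC adjustment. Hsf1, the factor that drives the heat shock response, was at 53.8 and 55.0 TPM.

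The differences of the chaperone genes followed the base composition of their transcripts, as differences of all genes did in these libraries. Over the 12947 genes with a GC value, Spearman's rho between GC content and difference was 0.52, and over the 33 chaperone genes it was 0.78; both are across genes that share the same libraries and are not independent replicates. All 19 chaperone genes with a GC content under 50% had differences below 0, with a median of -0.60, beside 4748 of 5968 such genes in general. Of the 14 at 50% or more, 7 were below 0 and 7 above, with a median of -0.04, beside 2803 below and 4170 above among 6979 genes. The same medians over all genes were -0.41 and 0.08.

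**Figure D2:**
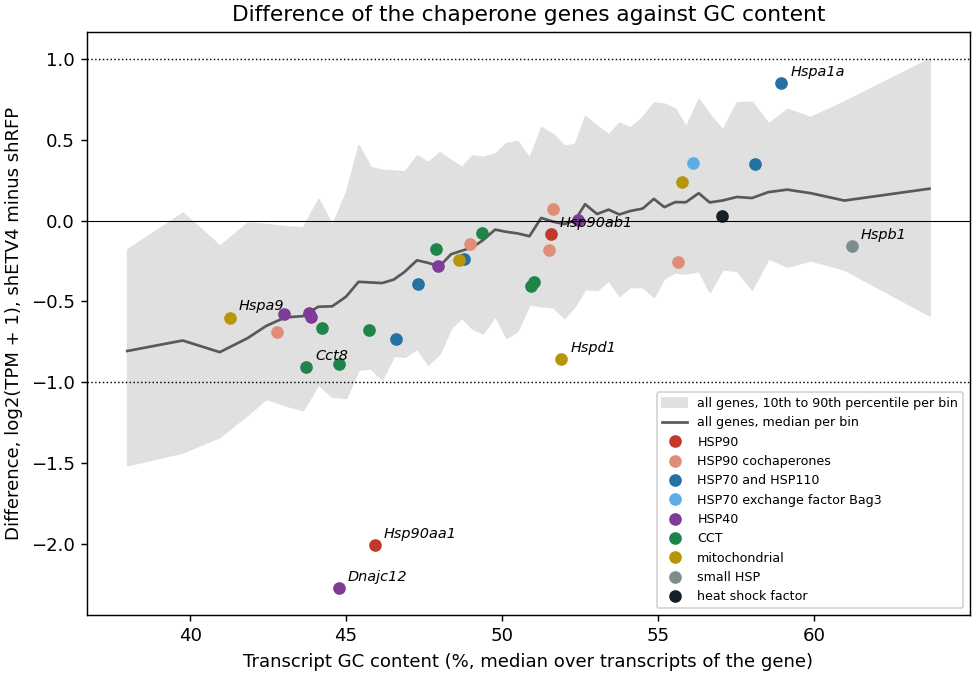
Difference of each chaperone gene (points, coloured by family) against the GC content of its transcripts in percent, with the median (line) and the 10th to 90th percentile (band) of all genes in 50 bins of GC content, and dotted lines at 2-fold. Hsp90aa1 and Dnajc12 lie near -2, below the band, and Hspd1 lies below it at a GC content of 51.9%.

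With the running median of all genes at the same GC content subtracted, Hsp90aa1 was at -1.62 and Dnajc12 at -1.77. They were again the 2 chaperone genes past 2-fold, 6.06% of the 33. Of all genes 2.31% were called lower and 3.99% higher after this adjustment. As both were known to be low beforehand, the higher share does not describe chaperone genes as a set. The other chaperone genes drew together: their median without this pair was -0.05, from -0.26 before. Hspa9, the member with the lowest GC content at 41.3%, went from -0.60 to 0.18. Ptges3 went from -0.69 to -0.07, Dnaja2 from -0.60 to -0.04 and Dnaja1 from -0.57 to 0.03. Hspd1 stayed at -0.84, and its partner Hspe1 was at -0.05. The GC content used is a median over all annotated transcripts of a gene, short ones included. The median transcript length was 863 bases for Hspd1 and 599 for Hsp90aa1. Their GC content may therefore differ from that of the transcripts expressed, and so may their adjusted values. The CCT median became -0.31, with 6 of 8 subunits below 0. At the high end Hspa1a was at 0.66 and Hspa1b at 0.20.

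**Figure D3:**
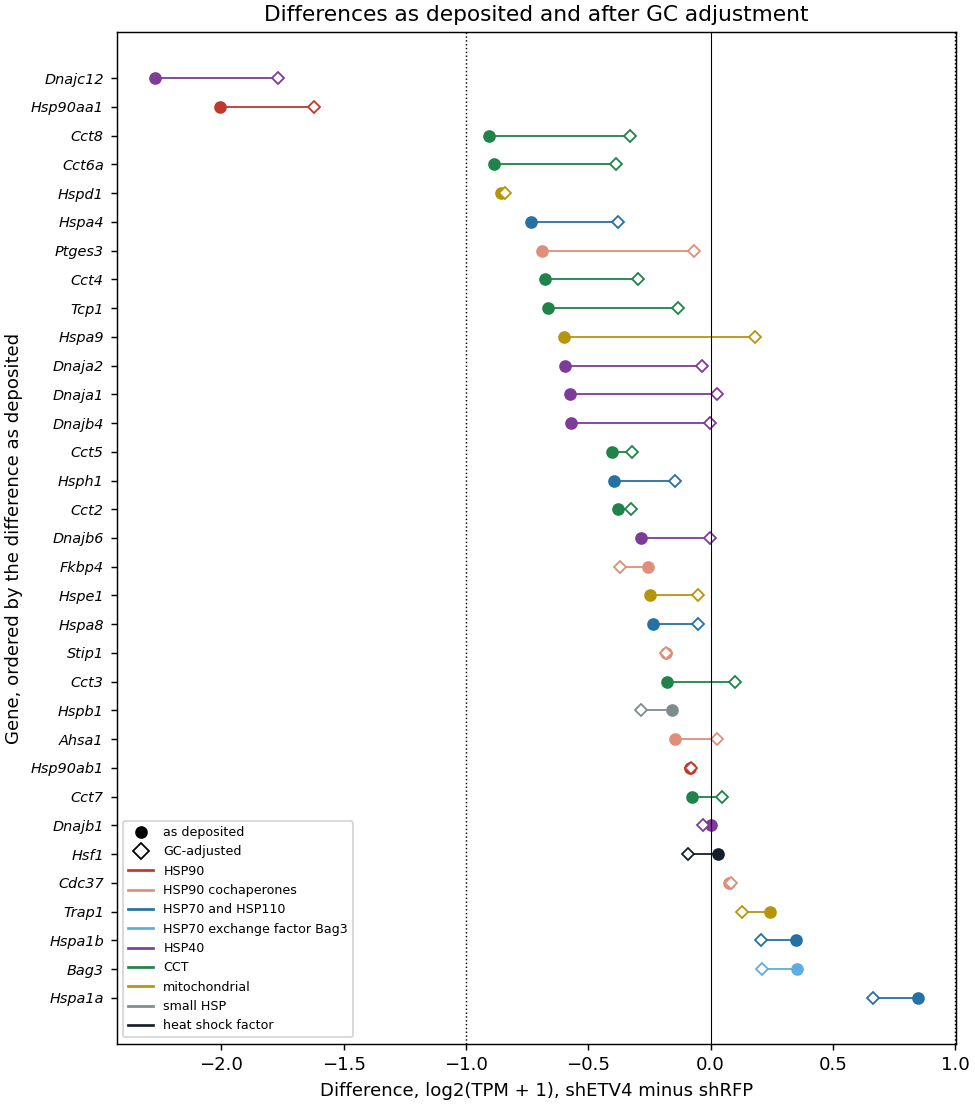
Difference of each chaperone gene as deposited (filled circles) and after GC adjustment (open diamonds), ordered by the deposited difference, with dotted lines at 2-fold. Dnajc12 and Hsp90aa1 stay beyond -1 under both, Hspd1 hardly moves, and most other genes come close to 0.

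At a looser limit of 1.5-fold, 11 chaperone genes (33.3%) were lower and 1, Hspa1a, was higher, beside 20% and 8.61% of all genes. At 3-fold the pair of Hsp90aa1 and Dnajc12, known to be low beforehand, was still lower and no member higher. Of all genes 1.25% passed 3-fold in each direction. The 11 were Hsp90aa1, Dnajc12, Ptges3, Hspa4, Dnaja2, Hspd1, Hspa9 and the CCT genes Cct4, Cct6a, Cct8 and Tcp1. After GC adjustment 3 were lower at 1.5-fold (9.09%), Hsp90aa1, Dnajc12 and Hspd1, beside 8.06% of all genes, and Hspa1a was higher, beside 10.1%.

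Heat shock elements, the inverted repeats of GAA to which HSF1 trimers bind, were searched in RefSeq promoter windows (GRCm38.p6, 250 bases before to 50 after each start). Windows matched 26 of the 33 genes; Hsp90aa1, Hsp90ab1, Hspa8, Hspa9, Dnajc12, Cct4 and Hsf1 were not analysed here. A full element was taken as GAANNTTC extended by NN and a further GAA, or by TTC and NN in front, on either strand. It stood in windows of 4 genes (15.4%), beside 0.662% of 27025 genes. They were Hspd1, Hspe1, Hsph1 and Dnajb6, with differences from -0.86 to -0.25. The median of these genes was -0.34, against -0.22 for members without the full element. The shorter GAANNTTC, on either strand and contained in the full element, stood in 11 (42.3%), beside 9.04% of genes. Their median difference was -0.26 against -0.40 for members without it. These medians were not adjusted for GC content, which in the 11 ran from 43.0% (Dnaja1) to 61.2% (Hspb1), and a link with the motif was not tested.

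Hspd1 and Hspe1 share the same element, since their windows overlap, and their differences were -0.86 and -0.25. Another window of Hspd1, at chr1:55088194-55088493, held no full element, and a link between element and difference was not tested. The 30 bases around the element of each of these genes follow on the strand of the named gene, with the element in capitals, at chr1:55088053-55088082 for Hspe1, chr5:149636280-149636309 for Hsph1 and chr5:29735843-29735872 for Dnajb6:
Hspe1: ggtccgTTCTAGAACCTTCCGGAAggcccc
Hsph1: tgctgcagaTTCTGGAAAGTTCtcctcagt
Dnajb6: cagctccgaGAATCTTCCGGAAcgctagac
The inducible HSP70 genes are shown because they are the HSP70 members that were higher. Their windows held the shorter match, in capitals, 104 bases before the start, and the 150 bases before the start differed between them at 1 position. They lie on the minus strand at chr17:34972157-34972306 for Hspa1a and chr17:34959239-34959388 for Hspa1b:
Hspa1a: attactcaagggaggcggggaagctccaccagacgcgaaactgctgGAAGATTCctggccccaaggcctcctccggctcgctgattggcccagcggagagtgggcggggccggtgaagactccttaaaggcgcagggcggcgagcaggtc
Hspa1b: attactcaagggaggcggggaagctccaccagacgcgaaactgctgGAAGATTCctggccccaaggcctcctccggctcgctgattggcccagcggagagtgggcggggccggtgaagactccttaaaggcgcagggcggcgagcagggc
So the pair has nearly the same promoter as well as much of the same transcript sequence. Their listed levels were 7.68-fold apart with shRFP and 4.92-fold apart with shETV4, but these ratios rest on the uncertain division of reads between them.

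ETS factors such as Etv4 bind GGAA cores. The ETS sequence CCGGAAGT, on either strand, stood in windows of 4 members (15.4%: Ahsa1, Dnaja1, Cct8 and Tcp1), beside 4.31% of genes. Their differences ran from -0.91 to -0.14, with a median of -0.62 against -0.25 for members without it; Dnaja1, Cct8 and Tcp1 have a GC content of 43.0% to 44.2%, and after GC adjustment they were at 0.03, -0.33 and -0.13. The shorter AGGAAG stood in windows of 9 members (34.6%), beside 38.4% of genes. Here the order was the other way, with a median of -0.18 against -0.38 for members without it, again without GC adjustment. The cochaperone gene Ahsa1 holds CCGGAAGT too and had a difference of -0.14. A match in these windows is a description of the letters and shows no binding.

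Of 122 chaperone genes outside the 33, in 7 lists, 109 reached 1 TPM, and their median difference was -0.12. Called lower were 11 (10.1%, beside the 7.06% of all genes) and called higher 2 (1.83%, beside 3.39%), and after GC adjustment none of the 109 was past 2-fold. The largest number came from other HSP90 cochaperones, 5 of 23. Among these Chordc1 was at 29.2 and 11.3 TPM and Cacybp, a calcyclin-binding protein gene, at 98.6 and 40.0 TPM. Ppid, which encodes cyclophilin 40, was at 124 and 60.5 TPM. Tomm70a, a mitochondrial import receptor that docks chaperones, was at 45.9 and 22.4 TPM, and Fnip1, a folliculin partner, at 6.87 and 2.05 TPM. Their GC contents lay between 39.7% (Chordc1) and 42.1% (Ppid), and after GC adjustment the 5 were between -0.59 and -0.21.

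In the other lists the genes called lower were likewise within 2-fold after adjustment. Of 16 other HSP70 genes and exchange factors reaching 1 TPM, Hspa4l, a further HSP110 gene, was at 14.2 and 5.81 TPM and Hspa13 at 20.9 and 7.51 TPM. Of 34 other J-domain genes, Dnajc2, a ribosome-associated chaperone gene, was at 50.7 and 21.2 TPM. Hsf2, another heat shock factor, was 1 of 3 factors and regulators and was at 11.2 and 4.89 TPM, with an adjusted difference of -0.28. Yme1l1, a protease of the mitochondrial inner membrane, was 1 of 15 mitochondrial folding and proteolysis genes, at 19.8 and 8.11 TPM. None of 15 prefoldin and chaperonin helper genes was called, from Vbp1 at 55.8 and 31.3 TPM to Tbcc at 23.9 and 34.8 TPM. The genes called higher were the muscle-type small heat shock protein genes Hspb2, at 1.65 and 4.42 TPM, and Hspb7, at 1.5 and 4.23 TPM, both low and within 2-fold after adjustment (0.85 and 0.92). Hspb2 shares 30.2% of its exonic sequence with an overlapping gene. Cryab, the most abundant gene of that list, was at 158 and 133 TPM.

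**Figure D4:**
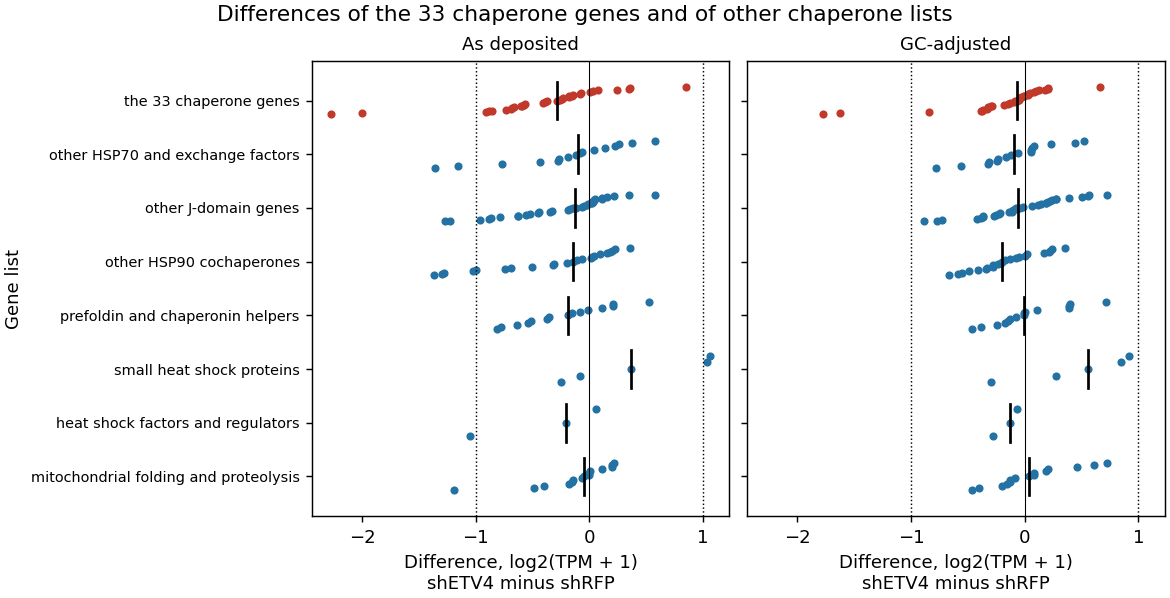
Difference of each gene at 1 TPM or more in the 33 chaperone genes (red) and in 7 other chaperone lists (blue), as deposited on the left and after GC adjustment on the right, with a bar at each median and dotted lines at 2-fold. On the right the points past 2-fold are Hsp90aa1 at -1.62 and Dnajc12 at -1.77.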

How the data were processed

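The 2 libraries, 1 per group, were made from total RNA (TruSeq, per the labels' protocols), and treatment labels gave the groups. The authors deposited TPM; the unit was read from the column totals (999999.77 and 999870.3), since the headers name none. The submitters' processing notes list HISAT2, RSEM and GRCm38.p4 with no role or version, and say nothing used here on annotation, strand, filters or reads shared by copies. TPM keeps no depth, so no counting error is given, and a gain in some RNAs lowers all others.

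Differences used a pseudocount of 1 and a minimum of 1 TPM in 1 of the libraries. GENCODE M21 (GRCm38) matched 99.5% of named records and gave coordinates, exon overlap, 50-base words on both strands, and GC content as the median over a gene's transcripts. The GC adjustment subtracts the running median over 50 bins. No test was run; the calculation was tested on simulated data. The members and lists were chosen with earlier results of these data known. The text names all 33 members, and of the other lists the called genes or, with none called, the end members (1 called gene is not reported here); Cryab, Vim, Alb, Ptprc, Hsp90b1, the pseudogenes and the neighbouring genes were named after their values were seen. Alternatives changed pseudocount, filter, scale, threshold and row choice. Python 3.11.15, numpy 2.4.6, pandas 2.3.3 and matplotlib 3.10.9 were used.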

Additional observations from a re-analysis of the deposited data

How the results depend on the processing

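The counts of 2 chaperone genes called lower and 0 higher held with pseudocounts of 0.1 and 5, without a filter, at 5 TPM, on 3 other scales, after GC adjustment, with records of a symbol summed and at 3-fold. At 1.5-fold they were 11 and 1. Over all genes the counts moved with the setting. Called lower were 916 of 12968 genes in the main setting, 1459 with a pseudocount of 0.1 and 267 with 5. On the trimmed-mean scale 666 of 13039 were called lower, and after GC adjustment 299 of 12947. Called higher were 439, 674, 167, 542 and 516 in the same order. The pair called lower was known to be low beforehand, so its steady count does not describe chaperone genes as a set. The median difference of the chaperone genes was -0.16 on the trimmed-mean scale, where the median of all genes moved from -0.10 to 0.02, and -0.070 after GC adjustment. Among the 24 members with under 20% of their 50-base words in other genes, an alternative chosen after seeing the data that drops Hsp90aa1 itself, 1 gene (Dnajc12) was called lower and the median was -0.39. The difference of Hsp90aa1 lay between -2.02 (pseudocount 0.1) and -1.62 (GC adjustment) in all of these. Dnajc12 stayed past 2-fold but moved more, between -2.79 (pseudocount 0.1) and -1.32 (pseudocount 5). The other 31 genes stayed within 2-fold under these settings. Of them 7 changed sign after GC adjustment, among them Hspa9 from -0.60 to 0.18 and Dnaja1 from -0.57 to 0.03, and 2 on the trimmed-mean scale. No paired analysis was possible because each group has 1 library, for which reason no library could be left out. Depth is unknown, so what it limits, above all for Dnajc12 and Hspa1a at low levels, could not be measured.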
